A study of Mus musculus with 8 samples.

Results

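PU.1 is itself a member of the ETS family of transcription factors, so the loci of ETS genes show where PU.1 bound its own gene and the genes of its relatives. The loci of 10 of these genes were examined among 21938 protein-coding genes. They were *Spi1*, which encodes PU.1, and *Spib*, *Ets1*, *Ets2*, *Elf1*, *Elf4*, *Fli1*, *Erg*, *Etv6* and *Gabpa*. A locus was the gene body with 20 kb on either side, and a peak belonged to it when the centre of the peak lay inside. By this rule 185 of the 67673 peaks in the 4 lists fell at the 10 loci.

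X18.1.1 is a radiation-induced murine AML cell line in which 1 *Pu.1* allele is deleted and the other carries mutations in the DNA-binding and PEST domains, and both lines used here kept that background. The PU.1- line was transduced with an empty retroviral vector and the PU.1+ line with PuER, which joins wild-type PU.1 to an oestrogen receptor domain that responds to 4-hydroxytamoxifen (OHT). Each was a clonal line, and both were given 100 nM OHT for 2 h before ChIP-Seq, in which DNA recovered with an antibody is sequenced and regions of accumulated reads are called as peaks. Antibodies against PU.1 (sc352x) and CEBPA (sc61x) gave 4 peak lists, with 1 library for each antibody and line. The endogenous mutant PU.1 was present in both lines, and peaks of the mutant and of PuER cannot be told apart in PU.1+.

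ETS proteins share a DNA-binding domain that recognises a GGAA core, and the bases beside the core separate the preferences of PU.1 and SPI-B from those of ETS1, ELF1, FLI1, ERG and GABPA. In blood cells they form a network in which members bind one another's regulatory elements, and PU.1 binds an upstream regulatory element (URE) of its own gene. CEBPA is a basic leucine zipper factor of granulocytes and monocytes that often binds close to PU.1.

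The PU.1 antibody gave 5288 peaks in PU.1- but 15683 in PU.1+, and the CEBPA antibody 26119 and 20583. Every peak spanned 400 bp. No heights or counts came with the peaks, so depth was unknown, and absence from a list does not show that a region was unbound. With no replicates, the lines could not be compared by a test. Shares carry 95% Clopper-Pearson (exact) intervals for counting error alone. An overlap of 1 bp or more between the lines made a peak shared, and peaks found in PU.1+ alone are called new.

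The sequences under the peaks are given first, on the forward strand of mm10 (GRCm38). For each locus with PU.1 peaks, 1 shared peak and 1 peak called in a single line are shown, from the class with more peaks, and peaks that coincided with CEBPA or lay closer to the gene 5′ end were preferred. Peaks within UTRs were passed over. Each run covers the middle 80 bp of its PU.1 peak, joined with the central 80 bp of a CEBPA peak of that line when that peak was centred within 80 bp of it. Capitals mark the ETS core GGAA and the CEBP site TTGCNNAA on either strand, so that a core on the reverse strand reads TTCC.
Spi1 -14 URE, PU.1 and CEBPA, both lines, chr2:91083013-91083128: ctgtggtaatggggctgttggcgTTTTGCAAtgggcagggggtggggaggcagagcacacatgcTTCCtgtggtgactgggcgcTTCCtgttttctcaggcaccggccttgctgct
Spi1 intron, PU.1 in PU.1+ only, chr2:91084688-91084767: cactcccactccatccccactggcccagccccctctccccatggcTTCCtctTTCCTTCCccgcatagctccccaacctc
Spib coding exon, PU.1 in PU.1+ only, CEBPA in both lines, chr7:44528196-44528275: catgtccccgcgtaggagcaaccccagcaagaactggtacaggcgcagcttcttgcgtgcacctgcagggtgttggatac
Ets1 intron, PU.1 and CEBPA, both lines, chr9:32668152-32668274: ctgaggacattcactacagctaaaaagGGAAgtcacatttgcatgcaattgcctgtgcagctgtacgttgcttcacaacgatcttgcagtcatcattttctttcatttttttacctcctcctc
Ets1 intron, PU.1 in PU.1- only, CEBPA in both lines, chr9:32654410-32654543: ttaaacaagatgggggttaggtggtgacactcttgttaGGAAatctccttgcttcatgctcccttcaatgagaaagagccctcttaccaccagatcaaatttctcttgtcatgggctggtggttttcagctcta
Elf1 intron, PU.1 in both lines, chr14:79519367-79519446: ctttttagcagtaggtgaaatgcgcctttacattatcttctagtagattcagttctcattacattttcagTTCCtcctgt
Elf1 intron, PU.1 and CEBPA in PU.1+ only, chr14:79532491-79532612: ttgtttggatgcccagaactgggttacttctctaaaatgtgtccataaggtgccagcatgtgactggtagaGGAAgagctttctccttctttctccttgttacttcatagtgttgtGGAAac
Elf4 intron, PU.1 in both lines, chrX:48433621-48433700: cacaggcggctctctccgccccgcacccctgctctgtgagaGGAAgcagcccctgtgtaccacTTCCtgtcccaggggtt
Fli1 intron, PU.1 in both lines, chr9:32516851-32516930: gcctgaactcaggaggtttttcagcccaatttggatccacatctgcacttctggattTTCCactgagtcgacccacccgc
Fli1 intron, PU.1 in PU.1+ only, chr9:32540215-32540294: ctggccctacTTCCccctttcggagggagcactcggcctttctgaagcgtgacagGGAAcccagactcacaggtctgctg
Erg intron, PU.1 in PU.1+ only, chr16:95432334-95432413: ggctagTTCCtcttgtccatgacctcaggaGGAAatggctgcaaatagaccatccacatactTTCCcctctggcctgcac
Etv6 intron, PU.1 and CEBPA, both lines, chr6:134115742-134115874: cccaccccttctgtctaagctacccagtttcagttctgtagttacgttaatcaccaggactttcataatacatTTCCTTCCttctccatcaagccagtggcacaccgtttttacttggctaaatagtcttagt
Etv6 intron, PU.1 in PU.1+ only, CEBPA in both lines, chr6:134044959-134045066: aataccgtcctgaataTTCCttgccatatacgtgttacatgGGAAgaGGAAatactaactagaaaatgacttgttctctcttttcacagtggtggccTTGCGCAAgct

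The 2 promoters at which CEBPA, but not PU.1, was called outside a UTR in both lines are shown in the same way, from the CEBPA peak of PU.1-.
Spib promoter, CEBPA in both lines, chr7:44532121-44532200: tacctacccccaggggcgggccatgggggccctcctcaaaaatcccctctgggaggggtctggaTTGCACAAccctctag
Fli1 promoter, CEBPA in both lines, chr9:32543816-32543895: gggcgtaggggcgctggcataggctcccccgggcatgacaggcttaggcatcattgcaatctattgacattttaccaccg

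The *Spi1* URE carried 2 GGAA cores, both in the form ACAGGAAGC on the reverse strand, and a CEBP site under the centre of the CEBPA peak. A GGAA core lay in the central 80 bp in 37 of the 40 PU.1 peaks that the loci had in PU.1+ (92.5%, 79.6 to 98.4) and in 91.1% of the whole list. In the CEBPA peaks of PU.1+ it was present in 66.1% at the loci and 60.1% of the whole list, so a core alone separates the peaks poorly. The counts given further on use the longer ETS site GGAAGT, which the URE windows did not hold. Unless a wider window is named, whether a peak held a motif refers to its central 80 bp.

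PU.1 peaks at the 10 loci went from 18 in PU.1- to 40 in PU.1+. Of these, 11 were shared, 7 were found in PU.1- alone and 29 were new. The new peaks made up 72.5% of those in PU.1+ (56.1 to 85.4), against 81.1% of the whole list, and the 7 made up 38.9% of those in PU.1- (17.3 to 64.3), against 43.8%. CEBPA went from 71 peaks to 56, of which 50 were shared, 21 were found in PU.1- alone and 6 were new. The 21 were 29.6% of the CEBPA peaks of PU.1- (19.3 to 41.6), against 30.7% of the whole list, and the 6 were 10.7% of those of PU.1+ (4.03 to 21.9), against 12.1%. Each of these intervals held the value of the whole list. *Etv6* alone held 16 of the 40 PU.1 peaks of PU.1+ and 13 of the 29 that were new, and without it the counts were 24 and 16.

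**Figure D1:**
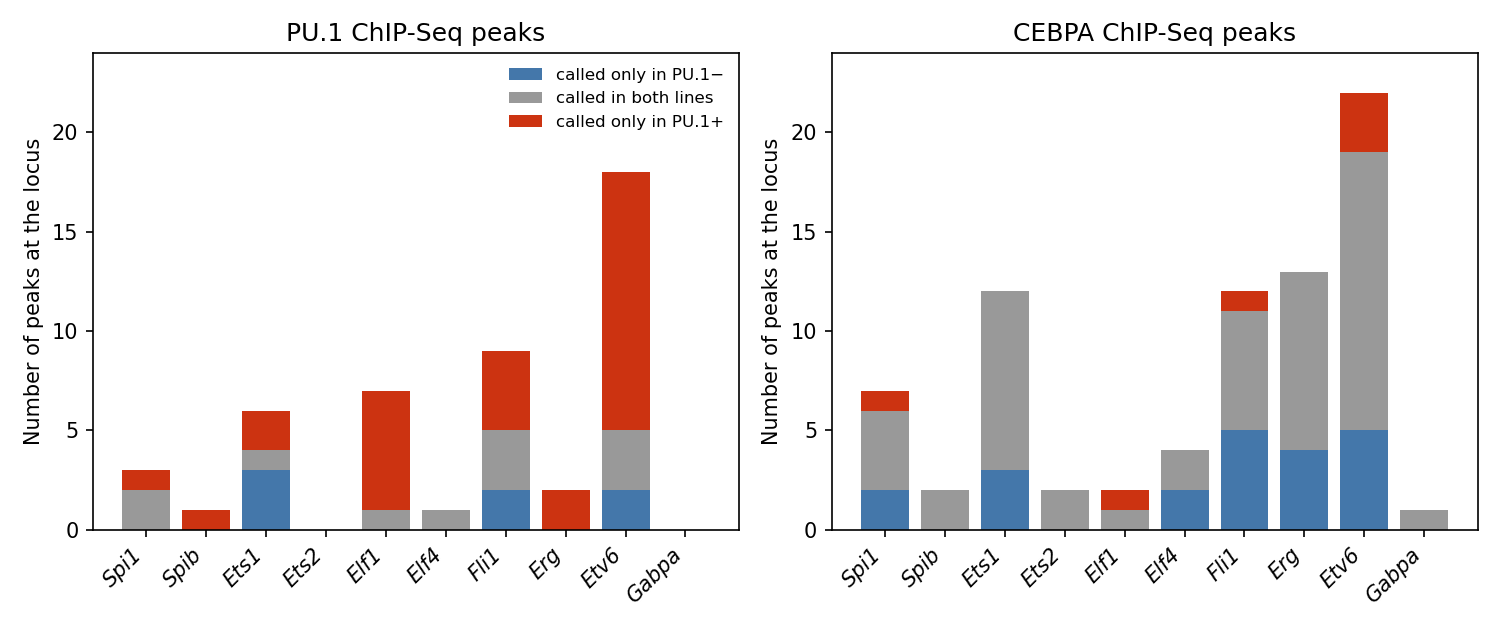
Number of PU.1 peaks (left) and CEBPA peaks (right) at each of the 10 ETS loci, stacked by whether the peak was found in PU.1- alone, in both lines or in PU.1+ alone (1 library each). *Etv6* had the most new PU.1 peaks (13) and *Elf1* the next most (6), whereas CEBPA peaks were mostly called in both lines (50).

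In PU.1-, PU.1 peaks were found at 6 of the 10 loci, against 23.7% of all protein-coding genes. In PU.1+ they were found at 8 of the 10, against 41.4%. A new PU.1 peak was found at 7 of the 10, against 36.7%, and a shared PU.1 peak at 6 of the 10, against 13.4%. PU.1 peaks exclusive to PU.1- were seen at 3 of the 10 loci (*Ets1*, *Fli1* and *Etv6*), against 13.7%. The loci were long, with a median of 117 kb against 57.4 kb for all genes, and long loci hold more peaks. Among genes with a locus of at least 100 kb, 55.2% had a new PU.1 peak, and all 5 of the members of that length (*Ets1*, *Elf1*, *Fli1*, *Erg* and *Etv6*) did. At that length 33.1% of genes had a PU.1 peak in PU.1-, against 4 of the 5, and 59.2% in PU.1+, against 5. A shared PU.1 peak was found at 21.8%, against 4 of the 5, and a PU.1 peak exclusive to PU.1- at 18.6%, against 3.

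A CEBPA peak was present at 10 of the 10 loci in PU.1-, against 56.5% of all genes, and at 10 of 10 in PU.1+, against 51.3%. Each of the 10 had at least 1 shared CEBPA peak, against 48.3%. CEBPA peaks exclusive to PU.1- were found at 6 of the 10, against 30.1%, and new CEBPA peaks at 4 of the 10 (*Spi1*, *Elf1*, *Fli1* and *Etv6*), against 11.4%. Thus no locus lost all of its CEBPA peaks, and none gained its first CEBPA peak in PU.1+. Among genes with a locus of at least 100 kb, 70.4% had a CEBPA peak in PU.1-, 66.6% in PU.1+ and 63.1% a shared one. All 5 members of that length had each of these. At that length 45.7% of genes had a CEBPA peak exclusive to PU.1-, against 4 of the 5 members, and 19.8% a new one, against 3.

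Per length, the 10 loci together went from 1.34 PU.1 peaks per 100 kb in PU.1- to 2.97 in PU.1+, whereas the loci of all protein-coding genes held 0.302 and 0.847. The density at the ETS loci was 4.43 times that of all loci in PU.1- and 3.51 times in PU.1+. Without *Etv6* the ratios were 4.02 and 2.65. CEBPA density at the ETS loci was 5.28 per 100 kb in PU.1- and 4.16 in PU.1+, which was 3.63 and 3.64 times that of all loci. The pooled density of both factors was thus already above that of all loci in PU.1-. For PU.1 this came from 6 of the loci, since *Spib*, *Ets2*, *Erg* and *Gabpa* had no PU.1 peak in PU.1-. For CEBPA in PU.1-, all loci held 1.45 per 100 kb. *Elf1* was below this at 0.708, *Gabpa* was level with it and the rest were above it.

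The PU.1 density in PU.1+ ranged from none at *Ets2* and *Gabpa* to 5.83 per 100 kb at *Etv6*. *Elf1* had 4.95, *Fli1* 4.36, *Spi1* 4.09, *Spib* 2.17, *Ets1* 1.86, *Elf4* 1.09 and *Erg* 0.748. *Etv6* stood at or above 97.6% of protein-coding genes, *Elf1* 96.4%, *Fli1* 94.2% and *Spi1* 93.2%. *Spib* followed at 81.4%, *Ets1* at 75.8%, *Elf4* at 64.7% and *Erg* at 61.7%. A locus without a PU.1 peak, as at *Ets2* and *Gabpa*, stood at 58.6%. The order of CEBPA density in PU.1- was different, with *Spi1* highest at 8.18 per 100 kb, then *Ets1* at 7.43, *Etv6* at 6.92 and *Fli1* at 6.85, and *Elf1* lowest at 0.708. *Elf1* thus combined one of the highest PU.1 densities with the lowest CEBPA density. With 1 library a list, neighbours in these orders cannot be separated.

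**Figure D2:**
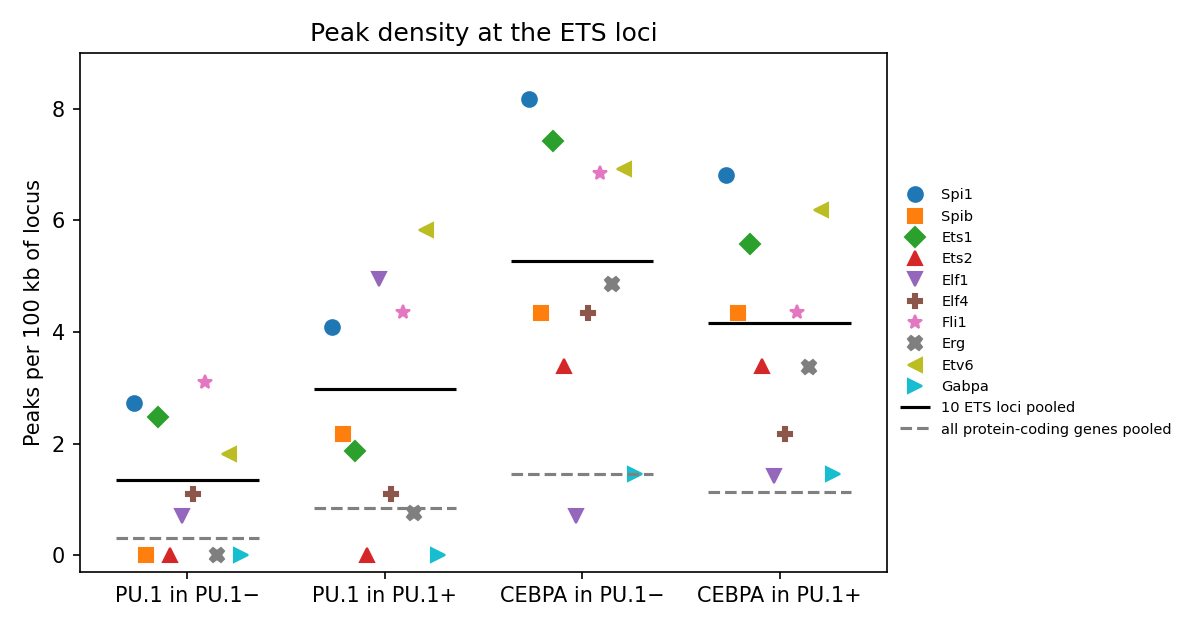
Peaks per 100 kb of locus for each of the 10 ETS genes (symbols), for the 10 loci pooled (solid line) and for the loci of all protein-coding genes pooled (dashed line), in each of the 4 lists. The pooled ETS density went from 1.34 to 2.97 for PU.1 and went from 5.28 to 4.16 for CEBPA, and *Elf1* (downward triangle) was near the top for PU.1 in PU.1+ and lowest for CEBPA in PU.1-.

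PU.1 was first followed at its own gene. *Spi1* lies on chromosome 2 (chr2:91082390-91115756, forward strand) and had 2 PU.1 peaks in PU.1- with 3 in PU.1+. The URE peak was called in all 4 lists, as PU.1 at chr2:91082891-91083290 in PU.1- and chr2:91082889-91083288 in PU.1+, and as CEBPA at chr2:91082850-91083249 and chr2:91082853-91083252. The 95-bp amplicon of the URE used for ChIP-qPCR, located by its primers at chr2:91083026-91083120, lay wholly inside all 4 peaks, and their centres were within 24 bp of its middle. It was 13.0 kb upstream of the start of the principal *Spi1* transcript and 0.7 kb inside a longer annotated transcript. The URE was therefore called with and without wild-type PU.1, with PU.1 centres 2 bp apart between the lines. By ChIP-qPCR at this element, the study found PU.1 in both lines but higher enrichment in the PuER clone after OHT. Peak calls without heights cannot show such a difference.

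The other shared PU.1 peak of *Spi1* lay 11.9 kb upstream of the gene in PU.1- (chr2:91070325-91070724) and 11.7 kb upstream in PU.1+ (chr2:91070514-91070913). These peaks overlapped by 211 bp, and the nearest transcript start was that of *Slc39a13*. The only new PU.1 peak of the locus, at chr2:91084528-91084927, was in an intron of the longer transcript, 1.6 kb from the URE, and had no CEBPA peak of either line. Its central 80 bp held 3 GGAA cores and no GGAAGT.

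CEBPA at *Spi1* went from 6 peaks to 5. Besides the URE, shared CEBPA peaks lay in introns 5.6 and 7.1 kb from the gene 5′ end in PU.1-, and in an intron beyond the principal transcript start. Those exclusive to PU.1- were at chr2:91096518-91096917 and at chr2:91113352-91113751, the latter in an intron near the 3′ end of the gene. The former lay downstream of the principal transcript start, centred 63 bp upstream of the start of another transcript. It held a CEBP site in its central 80 bp. One CEBPA peak, at chr2:91072061-91072460, was called only in PU.1+. PuER carries *Spi1* coding sequence, but no PU.1 peak overlapped an exon of *Spi1*, or of *Esr1*, the oestrogen receptor gene, in either line. CEBPA peaks overlapped *Spi1* exons 2 times in PU.1-, which lacks the transgene, and 0 times in PU.1+.

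*Spib* encodes SPI-B, the closest relative of PU.1, known from B cells and plasmacytoid dendritic cells. It lies on the reverse strand (chr7:44525993-44532071) and had no PU.1 peak in PU.1- and 1 in PU.1+. That peak (chr7:44528036-44528435) was centred in a coding exon and overlapped a CEBPA peak called in both lines by 227 bp. Its central 80 bp held no GGAA core, one of 3 such peaks among the 40. The other CEBPA peak of *Spib* was shared at its promoter, 89 bp upstream of a transcript start in PU.1- and 72 bp in PU.1+, over a CEBP site in PU.1-. Another new PU.1 peak (chr7:44553833-44554232), with 2 GGAAGT sites, lay 1961 bp beyond the 20-kb limit and was not counted.

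*Elf1* and *Elf4* encode ELF factors of haematopoietic cells, and ELF4 is known for restraining the quiescence of stem cells. *Elf1* (chr14:79481194-79582494, forward strand) went from 1 PU.1 peak in PU.1- to 7 in PU.1+. The single PU.1- peak at chr14:79519394-79519793 overlapped its PU.1+ counterpart by 213 bp. The 6 new peaks lay between 34.5 and 81.3 kb from the 5′ end of the gene, at or downstream of the internal transcript start rather than at the first promoter. One (chr14:79515483-79515882) was centred 4 bp upstream of that internal start and held a GGAAGT site. The next (chr14:79521785-79522184), 40.8 kb into the gene, had neither a GGAAGT site nor CEBPA.

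CEBPA had 1 peak at *Elf1* in PU.1- but 2 in PU.1+, and both of those overlapped new PU.1 peaks. At chr14:79532331-79532730 PU.1 and at chr14:79532373-79532772 CEBPA were both new, and 358 bp were common to them. At chr14:79549442-79549841 new PU.1 overlapped a CEBPA peak of both lines by 179 bp. Neither of these 2 PU.1 peaks had a GGAAGT site in the central 80 bp, whereas a new peak without CEBPA at chr14:79541637-79542036 had 2, one of them within GAGGAAGT and the other within CAGGAAGT or CCGGAAGT. The new peak at chr14:79562281-79562680 also had a site, although the nearest transcript start was that of *Sugt1*. A further new PU.1 peak (chr14:79460893-79461292) lay 102 bp beyond the 20-kb limit upstream and was not counted.

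*Elf4* (chrX:48411046-48463132, reverse strand) had 1 PU.1 peak in each line, shared, 29.5 kb from the 5′ end of the gene in PU.1+ and with the ETS1-type site CAGGAAGT or CCGGAAGT. Its CEBPA peaks went from 4 to 2. The 2 that were called only in PU.1- were intronic, at chrX:48428607-48429006, which held 2 CEBP sites, and at chrX:48438957-48439356, which held a GGAAGT site. No new peak of either factor was seen at *Elf4*.

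**Figure D3:**
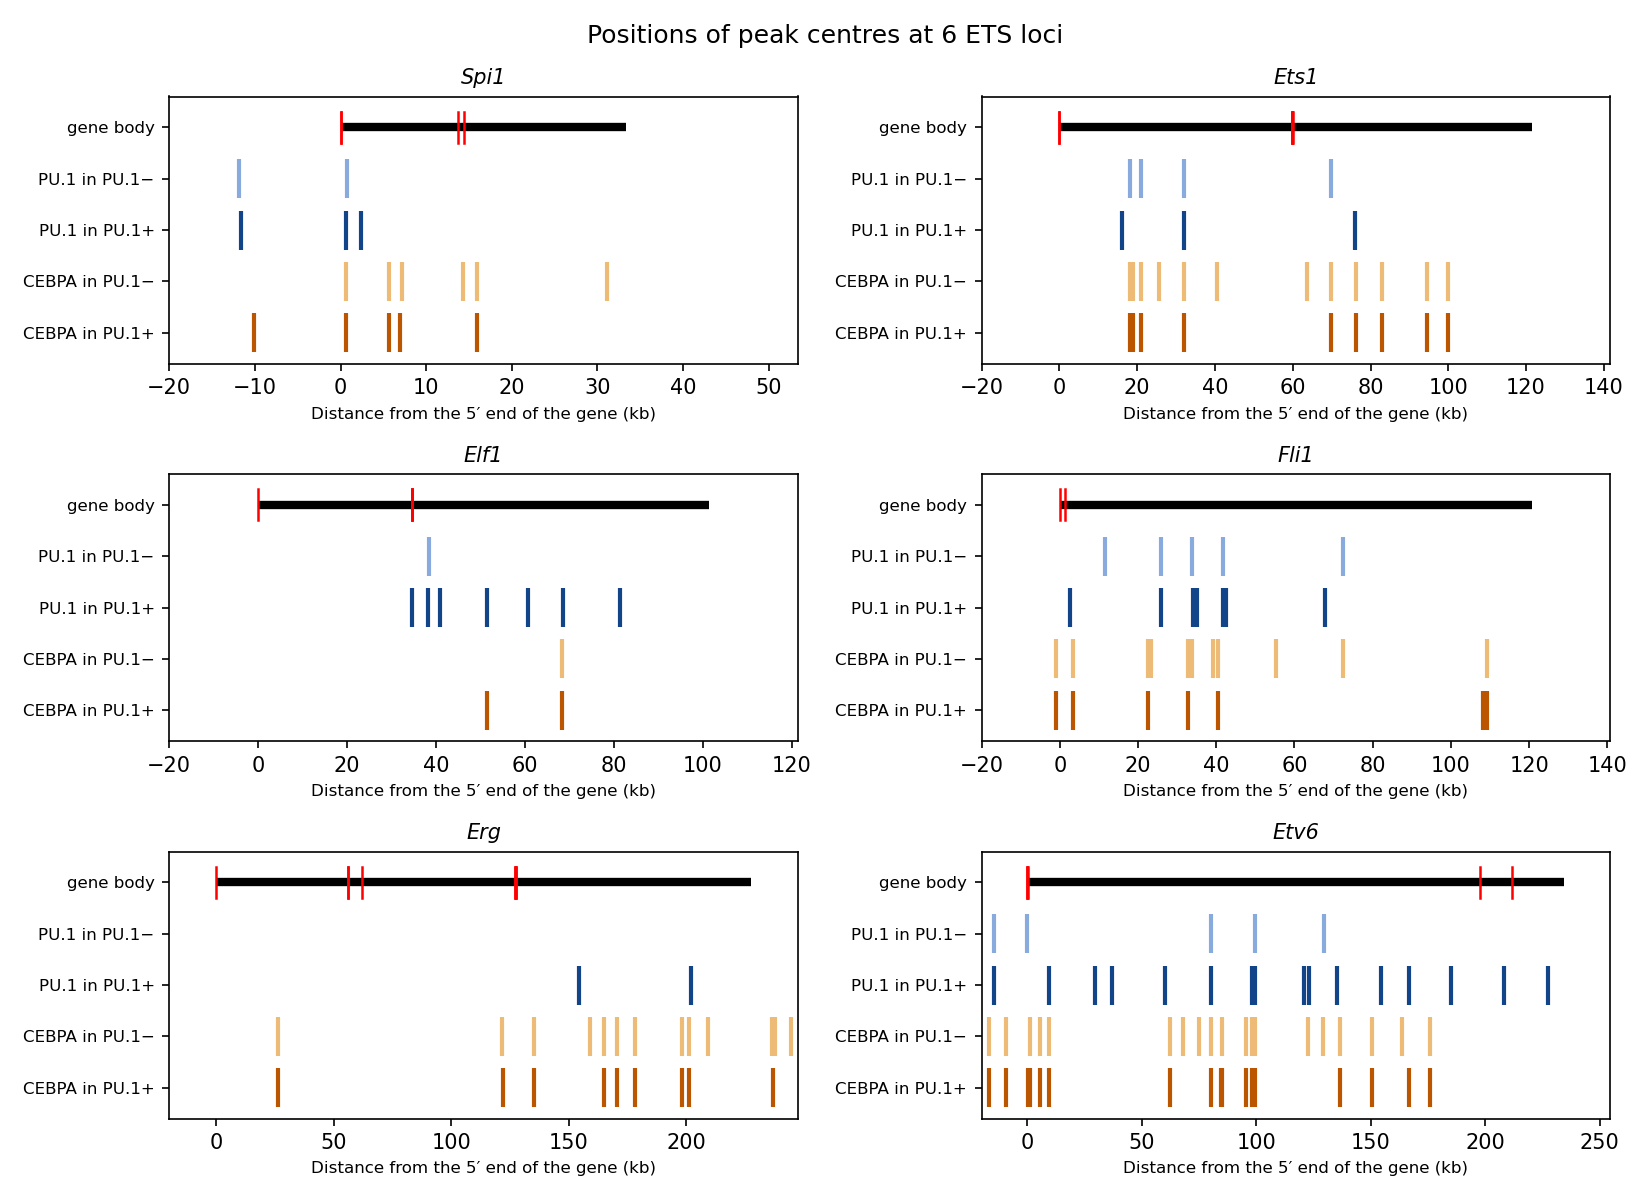
Positions of peak centres at 6 of the ETS loci, as distance in kb from the 5′ end of the gene (x axis), in the 4 lists (rows). The black bar is the gene body and red ticks are transcript starts. The new PU.1 peaks of *Elf1* and *Etv6* were spread along the introns. Most CEBPA peaks of PU.1- recurred in PU.1+, although 5 of the 11 at *Fli1* did not.

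*Ets1* and *Ets2* encode the founding factors of the family, ETS1 being prominent in lymphoid cells and both being targets of RAS signalling. *Ets1* (chr9:32636221-32757820, forward strand) had 4 PU.1 peaks in PU.1- but 3 in PU.1+, the only one of the 10 loci with fewer in PU.1+. One peak, 32.0 kb from the 5′ end of the gene, was called in all 4 lists, and its central 80 bp held a GGAAGT site in both lines. The 3 PU.1 peaks exclusive to PU.1- were intronic (chr9:32654250-32654649, chr9:32656915-32657314 and chr9:32705913-32706312), and each overlapped a CEBPA peak called in both lines, by 346, 368 and 388 bp. At these 3 sites CEBPA was called with and without the PU.1 call, and no PU.1 peak held a GGAAGT site in its central 80 bp. In the whole 400 bp, the peak at chr9:32656915-32657314 held 1, of the ETS1 type.

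The pattern of PU.1 in PU.1- with CEBPA in both lines was seen at 3 of the 106 sites at the loci, all at *Ets1*, and at 2.41% of the sites genome-wide. The 2 new PU.1 peaks of *Ets1* were at chr9:32652237-32652636, without CEBPA, and at chr9:32711988-32712387, where 31 bp overlapped a shared CEBPA peak. Both held an AP-1 site, TGANTCA, in the central 80 bp and neither held GGAAGT. The 3 CEBPA peaks exclusive to PU.1- lay 25.5, 40.6 and 63.6 kb from the 5′ end of the gene and stood without PU.1. In all, *Ets1* had 12 CEBPA peaks in PU.1- but 9 in PU.1+, all 9 shared. *Ets2* (chr16:95702075-95721051, forward strand) had no PU.1 peak in either line and 2 shared CEBPA peaks, in an intron (over a CEBP site) and downstream of the gene.

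*Fli1* and *Erg* encode closely related factors of stem cells, megakaryocytes and endothelium. *Fli1* (chr9:32422204-32542861, reverse strand) went from 5 PU.1 peaks in PU.1- to 7 in PU.1+, with 3 shared. The shared peaks lay 26.0, 33.9 and 41.8 kb from the 5′ end of the gene in PU.1+. The 4 new peaks were at chr9:32474950-32475349, chr9:32500062-32500461, chr9:32507599-32507998 and chr9:32540055-32540454, and 4 of 4 held a GGAAGT site. In 2 of them, and in the shared peak at chr9:32508716-32509115, the site was of the PU.1 type, GAGGAAGT. None of the 4 overlapped a CEBPA peak.

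CEBPA at *Fli1* went from 11 peaks to 7. At the shared PU.1 peak at chr9:32508749-32509148 of PU.1-, a CEBPA peak (chr9:32508877-32509276, overlap of 272 bp) was called only in PU.1-. At chr9:32470233-32470632 PU.1 and at chr9:32470306-32470705 CEBPA were both called only in PU.1-, over a RUNX site. A CEBPA peak 965 bp upstream of the first *Fli1* transcript start in PU.1+ was shared. At *Fli1* CEBPA calls were thus missing in PU.1+ both with and without the PU.1 call.

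*Erg* (chr16:95359169-95586593, reverse strand) had no PU.1 peak in PU.1- and 2 in PU.1+, at chr16:95384563-95384962 and chr16:95432174-95432573. They lay 201.8 and 154.2 kb from the 5′ end of the gene, in introns, and neither overlapped CEBPA or held a GGAAGT site. CEBPA went from 13 peaks to 9, all 9 shared, and 4 were exclusive to PU.1-. Of those 4, 2 lay downstream of the gene, nearest to the start of *Kcnj15*, and 2 in introns, each of these over a CEBP site. The new PU.1 peak at 201.8 kb was close to a shared CEBPA peak at 201.0 kb without overlapping it. At *Erg*, as at *Spib*, *Ets1*, *Ets2*, *Elf4* and *Gabpa*, no CEBPA peak was called only in PU.1+.

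*Etv6* encodes TEL, a repressor that is needed for bone marrow haematopoiesis and is a frequent partner in leukaemia fusion genes. It lies on chromosome 6 (chr6:134035700-134270158, forward strand) and went from 5 PU.1 peaks in PU.1- to 16 in PU.1+. The 3 shared peaks lay 14.7 kb upstream of the gene and 80.1 and 99.4 kb inside it. The intronic 2 were called as CEBPA in both lines as well, and neither held a GGAAGT site in the central 80 bp. The upstream one (chr6:134020765-134021164 in PU.1+) had no CEBPA and held both GGAAGT and a composite ETS-IRF site.

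The 13 new PU.1 peaks of *Etv6* were all intronic, from 9.3 to 227.4 kb into the gene, and 7 held a GGAAGT site in the central 80 bp. Those with a site there lay 29.6, 36.9, 60.1, 120.6, 154.3, 166.7 and 227.4 kb from the 5′ end. Those without lay at 9.3, 98.2, 123.1, 135.4, 184.9 and 208.1 kb, and all of these but the peak at 123.1 kb held the site elsewhere in the 400 bp. The peak at 36.9 kb (chr6:134072399-134072798) held 2 sites in the central 80 bp, 1 of them of the ETS1 type. The peak at 154.3 kb also held an ETS1-type site, and the peak at 227.4 kb (chr6:134262938-134263337) a PU.1-type site. With CEBPA of both lines they coincided at chr6:134044799-134045198 and chr6:134133664-134134063, with overlaps of 372 and 371 bp in PU.1+. At chr6:134202156-134202555 a new PU.1 peak with a GGAAGT site overlapped a CEBPA peak that was also called only in PU.1+ (chr6:134202199-134202598) by 357 bp. The peak at chr6:134158604-134159003 overlapped a CEBPA peak that was called only in PU.1- (chr6:134158267-134158666). New PU.1 peaks at *Etv6* were therefore found beside CEBPA peaks that were shared, new and missing in PU.1+, and 9 of the 13 stood without any CEBPA peak.

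At the *Etv6* promoter the factors differed between the lines. PU.1 was called only in PU.1- at chr6:134035362-134035761, centred 139 bp upstream of the transcript start, without a GGAAGT site. CEBPA was called only in PU.1+ at chr6:134035786-134036185, centred 16 bp downstream of a transcript start. These neighbouring peaks did not overlap. CEBPA at the locus went from 19 peaks to 17, with 14 shared, 5 exclusive to PU.1- and 3 new. The 5 lay 67.9, 74.8, 122.8, 129.2 and 163.8 kb into the gene, and 3 of them held a CEBP site in the central 80 bp. The PU.1 peak of PU.1- at chr6:134165125-134165524 overlapped the fourth of them by 23 bp and was itself exclusive to PU.1-.

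*Gabpa* encodes the DNA-binding subunit of GABP, a widely expressed activator of housekeeping and mitochondrial genes. It lies on chromosome 16 (chr16:84834925-84863779, forward strand), had no PU.1 peak and had 1 CEBPA peak, shared, 17.9 kb upstream of the gene in both lines, with *Jam2* as the nearest transcript start. *Ets2* and *Gabpa* were thus the loci without any PU.1 call.

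Most peaks were intronic, whether new or shared. The whole lists were not divided by place or nearest transcript start, so no share elsewhere is given for comparison. Gene bodies filled most of the longest loci, with 234.5 of 274.5 kb at *Etv6*. Of the 40 PU.1 peaks of PU.1+, 27 new and 8 shared peaks were in introns, 1 new and 1 shared at a promoter (within 1000 bp of a transcript start), 2 shared upstream of the gene and 1 new in a coding exon. The member had the nearest transcript start for 38 of the 40, and for 17 of 18 in PU.1-. For CEBPA this held for 64 of 71 peaks of PU.1- and 50 of 56 of PU.1+. Shared peaks were closely placed, with a median of 23 bp between PU.1 centres (2 to 189) and 12 bp between CEBPA centres (0 to 193).

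The number of PU.1 peaks on CEBPA peaks was much the same in both lines, 10 and 11, and their share was smaller in PU.1+. The sites were for the most part different, because 5 of the 10 were PU.1 peaks exclusive to PU.1- and 7 of the 11 were new. In PU.1-, 10 of 18 overlapped a CEBPA peak of that line (55.6%, 30.8 to 78.5), against 57.6% of the whole list. In PU.1+ it was 11 of 40 (27.5%, 14.6 to 43.9), against 29.8%. Among the new PU.1 peaks, 7 of 29 overlapped CEBPA of PU.1+ (24.1%, 10.3 to 43.5), against 23.2%, and 6 of 29 overlapped a CEBPA peak already called in PU.1- (20.7%, 7.99 to 39.7), against 2307 of 12714 in the whole list. Of the 6 new CEBPA peaks, 1 at *Elf1* and 1 of the 3 at *Etv6* coincided with PU.1 of PU.1+, or 33.3% (4.33 to 77.7), against 42.6%. Where a whole-list value is given, the interval at the loci held it, so the co-binding at ETS loci was not distinguishable from that elsewhere.

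At least 1 PU.1 peak on a CEBPA peak was found at 4 of the 10 loci in PU.1- (*Spi1*, *Ets1*, *Fli1* and *Etv6*), against 13.6% of all genes, and at 5 of the 10 in PU.1+ (*Spi1*, *Spib*, *Ets1*, *Elf1* and *Etv6*), against 17.2%. Among genes with a locus of at least 100 kb the shares were 22.2% and 29.5%, against 3 of 5 members in each line. When overlapping peaks of the 4 lists were merged, the loci held 106 of 40136 sites. CEBPA in both lines without PU.1 was the most common pattern, with 38 sites (35.8%, against 33.6% genome-wide), followed by new PU.1 alone with 21 (19.8%, against 23.6%) and CEBPA of PU.1- alone with 17 (16%, 9.63 to 24.4). All 4 lists met at 4 sites (3.77%, against 4.01%), which were the *Spi1* URE, the *Ets1* intron and the pair in *Etv6*. PU.1 in both lines without CEBPA was seen at 6 sites (5.66%, 2.11 to 11.9), against 2.57%. The mixture of patterns at the loci was thus close to that of the genome.

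**Figure D4:**
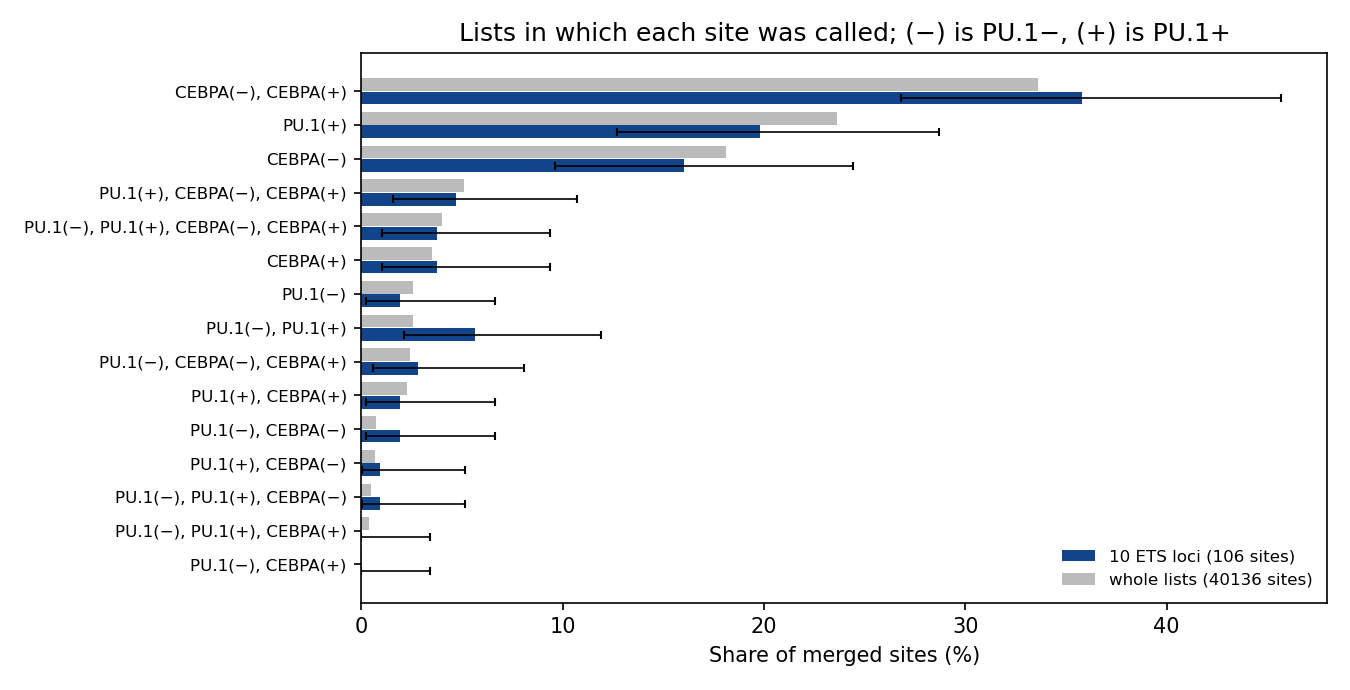
Share of merged sites (%) with each combination of lists, at the 10 ETS loci (blue, 106 sites, with exact 95% intervals) and genome-wide (grey, 40136 sites). Sites with CEBPA in both lines and no PU.1 were the most common in both, at 35.8% and 33.6%.

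The ETS site GGAAGT was searched on both strands in the central 80 bp of each peak. It was present in 5 of 18 PU.1 peaks at the loci in PU.1- (27.8%, 9.69 to 53.5), against 36.5% of the whole list, and in 19 of 40 in PU.1+ (47.5%, 31.5 to 63.9), against 43.5%. It was present in 14 of the 29 new peaks (48.3%, 29.4 to 67.5), against 42.9%, and in 1 of the 7 that were called only in PU.1-, at *Fli1* (14.3%, 0.361 to 57.9), against 29.6%. Among the new peaks, 13 of the 22 away from CEBPA held the site (59.1%, 36.4 to 79.3), against 45.3% of the whole list. Of the 7 new peaks on a CEBPA peak, 1 did, in *Etv6* (14.3%, 0.361 to 57.9), against 34.7%. New peaks away from CEBPA thus held the site more often in the whole list, and the values at the loci lay on the same side with overlapping intervals. The contrast at the loci depended on the window. In the central 200 bp the new peaks on CEBPA at *Spib* and at chr6:134133664-134134063 also held the site. Away from CEBPA, that window added the site at chr6:134243599-134243998.

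The more specific forms each contain GGAAGT. The PU.1-type site GAGGAAGT was in 5 of the 40 peaks of PU.1+ (12.5%, 4.19 to 26.8), against 15.2% of the whole list, and the ETS1-type site CAGGAAGT or CCGGAAGT also in 5 of the 40, against 6.43%. Peaks with the ETS1-type form in PU.1+ were at *Elf1*, *Elf4*, *Fli1* and *Etv6*. The composite ETS-IRF site, which can be bound by PU.1 together with an interferon regulatory factor, was in 4 of the 40 (10%, 2.79 to 23.7), against 11.8%. The RUNX site, TGCGGT or TGTGGT, was in 1 of the 40 (2.5%, 0.0633 to 13.2), the *Spi1* URE, against 11.5%, and the AP-1 site was in 3 of the 40, against 3.9%.

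The CEBP site TTGCNNAA was in 0 of the 40 PU.1 peaks at the loci in PU.1+, which allows a share of up to 8.81%, against 7.31% of the whole list, and in 0 of the 18 in PU.1-, which allows up to 18.5%, against 10.5%. In CEBPA peaks it was present in 24 of 71 in PU.1- (33.8%, 23 to 46), against 35.6%, and in 16 of 56 in PU.1+ (28.6%, 17.3 to 42.2), against 38.2%. GGAAGT was found in 3 of 71 CEBPA peaks of PU.1- (4.23%, 0.88 to 11.9), against 9.95%, and in 1 of the 56 in PU.1+ (1.79%, 0.0452 to 9.55), against 10.6%. Only for the last of these did the interval at the loci leave out the value of the whole list, among the shares compared for GGAAGT and TTGCNNAA in the 4 lists. This held for the central 80 bp only. In the central 200 bp the share was 14.3% (6.38 to 26.2), against 22.5%, and in the whole peak 26.8% (15.8 to 40.3), against 33.7%, so that the interval then held the value of the whole list. A match is a description of the letters and not a measured binding site.

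**Figure D5:**
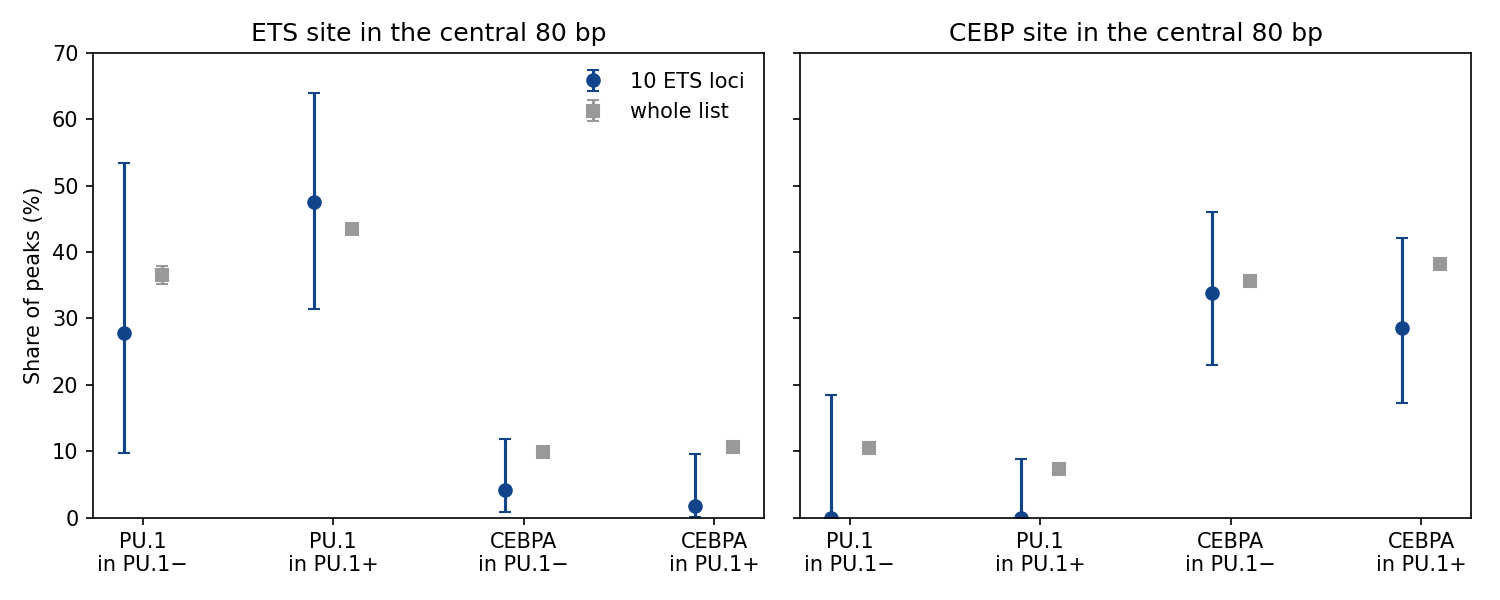
Share of peaks (%) with the ETS site (left) and the CEBP site (right) in the central 80 bp, for the 4 lists at the 10 ETS loci (circles) and in the whole lists (squares), with exact 95% intervals. The ETS site was in 47.5% of the PU.1 peaks of PU.1+ at the loci and 43.5% of the whole list, and the CEBP site in 0 of 40 of them and 7.31% of the whole list.

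The 16 other ETS family genes were less densely occupied than the 10. PU.1 peaks at their loci went from 8 to 18, or 0.704 and 1.58 per 100 kb, which was 2.33 and 1.87 times the density of all loci. CEBPA peaks went from 26 to 21, or 2.29 and 1.85 per 100 kb, which was 1.57 and 1.61 times the density of all loci. A PU.1 peak was present at 4 of the 16 in PU.1-, against 23.7% of all genes, and at 8 in PU.1+, against 41.4%. A new one was present at 7, against 36.7%. The most PU.1 peaks in PU.1+ were at *Etv1*, with 6, all new, and at *Etv3*, with 4, of which 2 were shared. *Elf2* and *Elk1* followed with 2 each. CEBPA was present at 11 of the 16 in PU.1-, against 56.5% of all genes. The 10 members had been named with results of these data known, so the difference in density between the sets is a description only.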

How the data were processed

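ChIP-Seq peaks of PU.1 and CEBPA in the PU.1- and PU.1+ lines were analysed, with 1 library each. The labels give 2 h of OHT for both lines. The H3K27Ac and IgG libraries were not used here. According to the submitters' processing notes, reads were aligned to mm10 (GRCm38) with Bowtie2 2.0.6 and peaks were called with MACS2 2.0.10. The calling threshold was not given in the sources used here. The values deposited by the authors were start and end coordinates without header, count or score, each interval spanning 400 bp.

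Gene models came from GENCODE on GRCm38 and sequence from the GRCm38 RefSeq assembly. A peak was assigned to a protein-coding gene when its centre lay in the gene body or within 20 kb, and all genes were treated by the same rule to give the background percentages. Shared peaks, and co-binding of PU.1 and CEBPA, required an overlap of at least 1 bp. Densities were pooled over the union of the loci, with each peak counted once. Motifs were exact matches. The GGAA core was added after the sequences had been seen.

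The loci, gene lists, motifs and rules were chosen with earlier results of these data known. All 10 loci are named, and of the 16 other ETS genes those with the 3 highest PU.1 counts in PU.1+, ties included. *Esr1* was used to check for reads of the transgene. The sequences shown followed the rule given with them, with at most 2 PU.1 peaks per locus. Overlap classes and motif searches were tested on simulated data, and the classes of the real lists were the same as those given by bedtools 2.31.1. Python 3.11.15, numpy 2.4.6, scipy 1.17.1 and matplotlib 3.10.9 were used. Alternatives were windows of 0, 10 and 50 kb, 2 stricter overlap rules, assignment to the nearest transcript start, omission of *Etv6*, omission of peaks on *Spi1* exons, wider motif windows and other sets of background genes.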

Additional observations from a re-analysis of the deposited data

How the results depend on the processing

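Of 110 values recomputed under the alternatives, 98 stayed within 1.5 times of the reported count or within the 95% interval of the reported share, and 12 did not. With 18 PU.1 peaks in PU.1- these intervals were wide, and the CEBP site went from 0% to 16.7% of them with either wider window and the ETS site from 27.8% to 44.4% with the central 200 bp, all within the intervals. The share of all protein-coding genes with a new PU.1 peak (found in PU.1+ alone) was 36.7% with 20 kb on either side, 18.2% for gene bodies alone, 29.3% with 10 kb and 52.7% with 50 kb. It was 56.1% among genes with at least 1 peak of any list and 55.2% among genes with a locus of at least 100 kb, the last being chosen after seeing the data. Without *Etv6*, PU.1 peaks in PU.1+ numbered 24, new PU.1 peaks 16 and new CEBPA peaks 3. With the central 200 bp, the CEBP site was in 12.5% of the PU.1 peaks of PU.1+, and with the whole peak in 17.5%, when the ETS site was in 55.6% and 67.5% of the PU.1 peaks of PU.1- and PU.1+. Wider windows hold more sequence by construction. Counts by class stayed within 1.5 times of the reported ones under both stricter overlap rules. A stricter peak threshold was not run, because the lists hold no scores. Depth was unknown, and with 1 library a condition the replicate error could not be estimated. No paired analysis was possible because there was 1 library for each antibody and line and no test was made.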
